A study of Mus musculus with 9 samples.

Results

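Macrophages and other leukocytes of the mammary stroma share a core of genes for surface receptors, microbial killing, adaptor signaling and movement, and 43 of these genes were examined in adipose stromal cells across 3 stages of mammary gland development. The genes were picked by name after earlier results of these arrays were known, and each was measured by the probe sets annotated to its symbol alone. Of the 43 genes, 42 had such a probe set, out of 19930 genes measured in all, and Slc11a1 was not analysed here. Each of the 42 genes was measured by 1 probe set. Because the changes between stages were known when the genes were picked, their values are given as a description, without p-values.

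The 9 Affymetrix Mouse Gene 1.0 ST arrays held 3 preparations of mammary adipose stromal cells from each of 3 stages, all from female Balb/c mice, with no treatment beyond breeding named in the labels. ASC-Ns came from nulliparous mice aged 8 weeks, ASC-Ls from mice on day 5 of lactation, and ASC-Is from mice on day 3 of involution, after the pups had been removed. The fat pads were digested and centrifuged, and according to the study's methods both the floating adipocytes and the remaining stromal fraction were put in culture and used at low passage, without a statement of which fraction went on the arrays. Values are log2 signals, so that a difference of 1 is a 2-fold change, and ± denotes the SD of 3 arrays.

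Macrophages are the phagocytes of the mammary gland. Resident cells depend on colony-stimulating factor signals, take up dying cells and debris, and are prominent in the gland when it regresses after weaning. The transcription factor PU.1, encoded by Spi1, sets up much of the myeloid program, and many of its target promoters lack a TATA box and carry its GAGGAA core close to the transcription start.

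Cells of several kinds left their mark on the arrays. The fibroblast genes were bright on every array, with a list mean of 10.31 to 11.20 and Col1a1 between 12.63 and 13.36. The mean of 9 adipocyte markers was 5.92 to 6.42, with Adipoq, which defines mature adipocytes, between 3.82 and 4.41 and Fabp4 between 7.50 and 8.45. The list means of markers of neutrophils (4.54 to 4.96), T and NK cells (4.64 to 4.85), B cells (4.67 to 4.88), mast cells (4.34 to 4.51) and dendritic cells (4.86 to 5.02) varied little over the 9 arrays. Single genes could vary more, and Il7r of the T and NK cell list ranged from 4.35 in nulliparous 3 to 6.68 in involution 2. Luminal epithelial markers stood out in lactation 2 and involution 2, where the mean of 18 genes was 8.70 and 7.51, against 5.81 to 6.92 elsewhere. The same arrays held the highest means of 10 milk genes, at 6.70 and 5.82. The mean of 10 endothelial markers was 7.10 and 6.58 on these arrays and 6.85 in nulliparous 1, against 5.19 to 5.65 on the others. Replicates of a stage correlated over all genes at r = 0.956 to 0.990. The signal scale has no zero, so that a low value cannot be read as absence, and the number of arrays limits the precision.

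The pieces of promoter printed here show the most frequent of 4 motifs searched for near the starts of these genes, in 4 genes that followed the shared pattern described next (Laptm5, Plek, Mrc1 and Vav1) and in Cd53, which did not follow it closely. Each piece holds the 120 bases before a transcription start in RefSeq (GRCm38.p6), read 5′ to 3′ on the strand of the gene. Capitals mark GAGGAA or its reverse complement TTCCTC, and in Vav1 the longer form GAGGAAGT, which contains GAGGAA.

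Laptm5, chr4:130913196-130913315, plus strand: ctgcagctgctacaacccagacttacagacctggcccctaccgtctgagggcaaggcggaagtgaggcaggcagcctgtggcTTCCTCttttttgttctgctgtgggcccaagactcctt

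Plek, chr11:17008719-17008838, minus strand: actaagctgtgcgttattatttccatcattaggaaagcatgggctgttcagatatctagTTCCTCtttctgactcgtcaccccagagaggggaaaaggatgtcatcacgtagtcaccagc

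Mrc1, chr2:14229294-14229413, plus strand: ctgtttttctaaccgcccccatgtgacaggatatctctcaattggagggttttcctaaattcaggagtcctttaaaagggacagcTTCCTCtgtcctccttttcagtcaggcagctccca

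Vav1, chr17:57278980-57279099, plus strand: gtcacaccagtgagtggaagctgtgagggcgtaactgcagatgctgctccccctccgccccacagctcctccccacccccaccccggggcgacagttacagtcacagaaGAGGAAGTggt

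Cd53, chr3:106790150-106790269, minus strand: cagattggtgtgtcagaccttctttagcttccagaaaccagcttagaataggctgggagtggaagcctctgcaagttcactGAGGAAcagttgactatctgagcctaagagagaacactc

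In these 5 pieces the first capital lay 38, 61, 35, 11 and 39 bases before the start, in the order printed. RefSeq held promoters for 32 of the 42 genes, and 14 of them (43.8%) had GAGGAA on either strand within 250 bases, against 25.5% of the 15611 measured genes with a promoter and 32 of 80 (40.0%) of the other myeloid genes examined. The 14 genes were Cd68, Mrc1, Marco, Aif1, Laptm5, Ptprc, Plek, Rassf2, Syk, Vav1, Dock2, Cd53, Acod1 and Apoe. The 250 bases of Mrc1 held 3 matches. GAGGAAGT was found only in Vav1 (3.12% of the 32 genes, against 2.59% of measured genes and 6.25% of the other myeloid genes). GGAANTGAA, a composite site of PU.1 with an interferon regulatory factor such as Irf8, was found in Marco and Ifitm6 (6.25%, against 1.98% and 6.25%). TATAAA was found in Laptm5, Ptprc, Nfam1, Irf8, Acod1, Ifitm6 and Apoe (21.9%, against 12.5% in both). A match describes these letters in this window and does not show that a factor binds there.

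The 42 genes were lowest on the whole in ASC-Ls and varied widely within ASC-Ns and ASC-Is. Their mean log2 signal was 7.10, 7.08 and 5.92 in the 3 ASC-Ns, 6.12, 6.04 and 6.09 in the ASC-Ls, and 7.66, 6.53 and 6.96 in the ASC-Is. The stage means were 6.70 ± 0.68, 6.08 ± 0.04 and 7.05 ± 0.57. The ASC-Ls lay close together and below every ASC-I, but nulliparous 3 lay below all 3 of them. The medians of all genes lay between 6.22 and 6.29 on the 9 arrays and did not follow this order. In these bulk samples, fewer macrophages and less RNA of these genes per macrophage cannot be told apart.

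**Figure D1:**
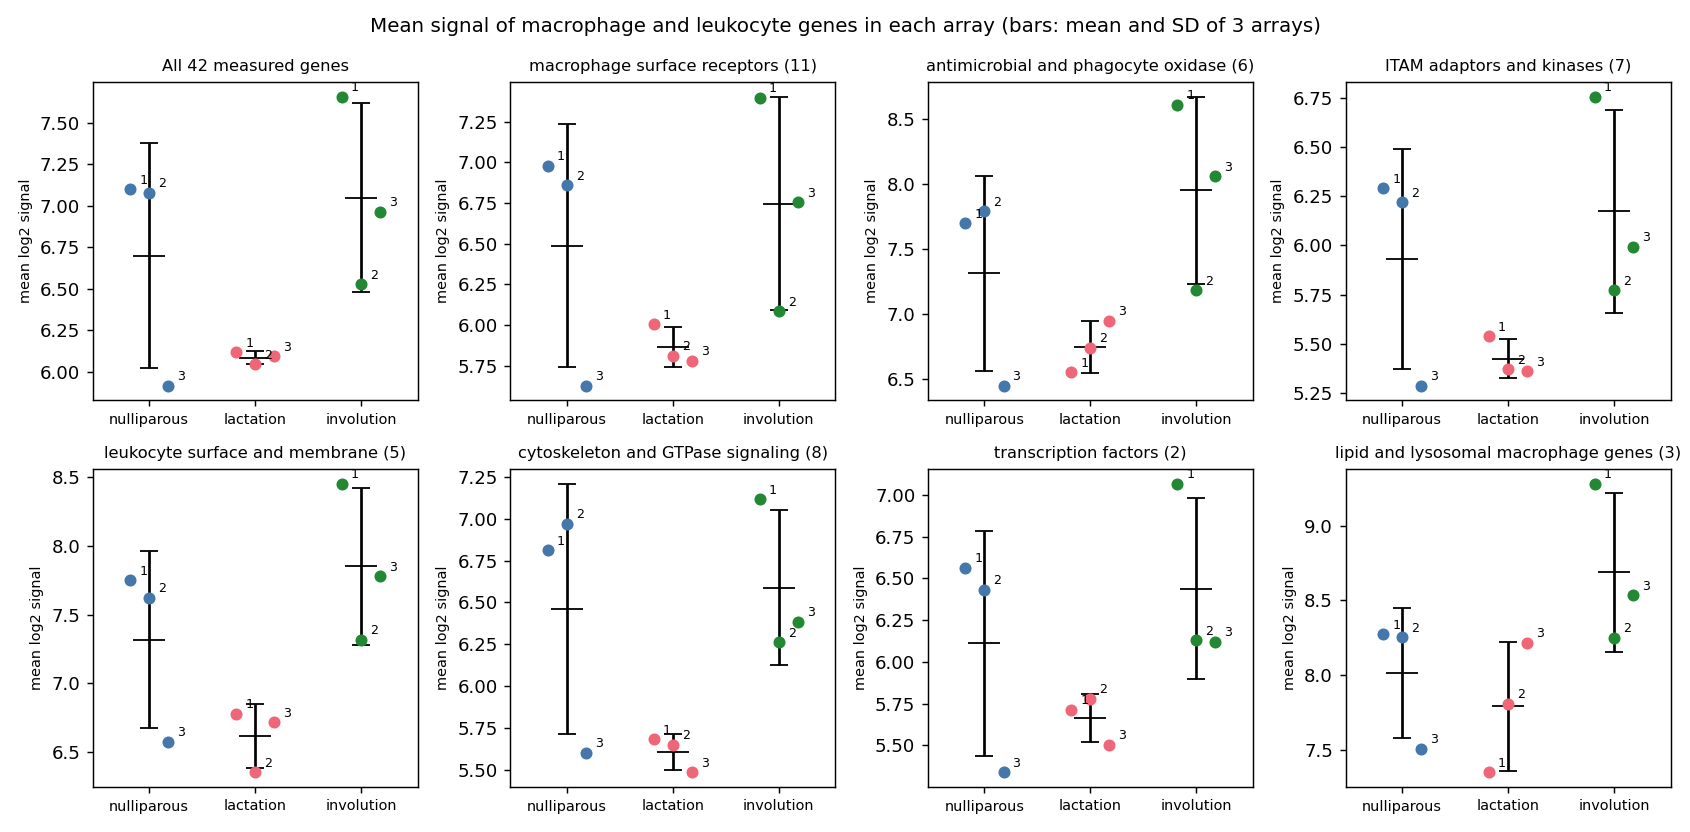
Mean log2 signal of all 42 genes and of each of the 7 groups of genes by function (number of genes in parentheses) on each array, with points numbered by replicate and bars for the mean and SD of 3 arrays. The ASC-Ls sit below every ASC-I in all 7 groups, nulliparous 3 lies below or near the ASC-Ls in each panel, and involution 1 is the highest array in every panel.

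Single arrays carried much of the variation. Involution 1 held the highest value of 30 of the 42 genes (13.4% of all genes), and the lowest values fell in nulliparous 3 for 18 genes (10.4% of all genes) and in lactation 2 for 14 (19.8%). Nulliparous 3 was the lowest ASC-N in 37 genes, where 32.4% of all genes had their lowest ASC-N value. Involution 1 was the highest ASC-I in 36 genes, against 38.3% of all genes. Nulliparous 1 and 2 were both above every ASC-L in 31 genes (9.34% of all genes), whereas nulliparous 3 was below the mean of the ASC-Ls in 29 (47.8% of all genes). Involution 2, one of the arrays with high epithelial signal, was the lowest ASC-I in 33 genes (39.9% of all genes).

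The genes moved largely together over the 9 arrays. A single principal component held 77.8% of their variance and the next held 10.2%. The correlation of each gene with the mean of the others was over 0.8 in 29 genes, between 0.5 and 0.8 in 6, and under 0.5 in 7. The highest values were those of Mpeg1 and Btk (both r = 0.99) and of Laptm5, Cd68, Ncf1 and Tyrobp (all r = 0.98), and the lowest were those of Acp5 (0.01), Acod1 (0.02), Marco (0.025), Gpnmb (0.22), Cd163 (0.25), Fgr (0.26) and Cd53 (0.47). With the stage means removed, r was still over 0.8 in 26 genes. The points share their arrays, and the correlations are a description without a p-value.

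**Figure D2:**
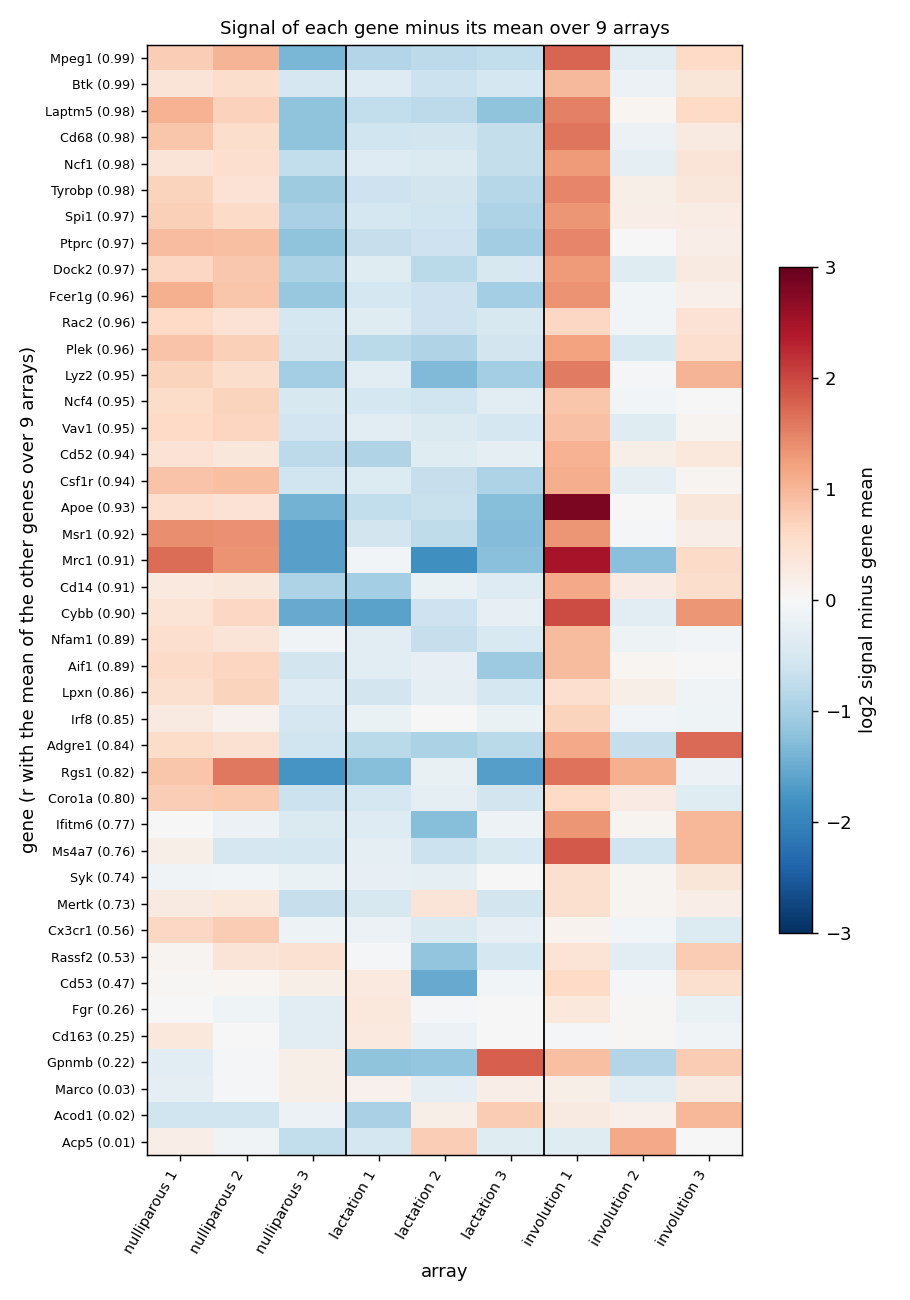
Log2 signal of each of the 42 genes minus its own mean over the 9 arrays (color), with genes ordered by their correlation with the mean of the others (in parentheses) and arrays in columns by stage. Most rows are red in nulliparous 1 and 2 and in involution 1 and blue in nulliparous 3 and the ASC-Ls, and the rows at the bottom do not share this pattern.

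The 6 measured antimicrobial and oxidase genes all had a lower mean in ASC-Ls than in ASC-Is. Lyz2, the lysozyme of macrophages, had log2 signals of 11.28, 11.13 and 9.58 in ASC-Ns, 10.26, 9.29 and 9.59 in ASC-Ls, and 12.16, 10.56 and 11.63 in ASC-Is. All 3 ASC-Is exceeded all 3 ASC-Ls. Nulliparous 1 and 2 lay above the ASC-Ls and nulliparous 3 lay among them. The lactation mean was 3.33-fold lower than the involution mean (log2 change −1.74, SE 0.53) and 1.93-fold lower than the nulliparous mean (−0.95, SE 0.53). Its close paralog Lyz1 was among the genes most like the whole set (r = 0.97), and probes may not tell the 2 transcripts apart. Cybb, the catalytic subunit of the phagocyte NADPH oxidase, measured 8.25, 8.45 and 6.32 in ASC-Ns, 6.23, 7.22 and 7.58 in ASC-Ls, and 9.79, 7.51 and 9.15 in ASC-Is. Involution 2 fell just below lactation 3, so that the stages overlapped even though the difference between their means was 3.50-fold (−1.81, SE 0.70). The cytosolic oxidase subunit Ncf1 (−0.97 in ASC-Ls against ASC-Is, SE 0.42) was lower in every ASC-L than in any ASC-I, as were the subunit Ncf4 (−0.74, SE 0.33) and Mpeg1, a pore-forming protein of phagosomes (−1.49, SE 0.66).

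Acod1, which makes the antimicrobial metabolite itaconate in activated macrophages, did not follow the other genes. Its signals were 5.06, 5.06 and 5.49 in ASC-Ns, 4.70, 5.84 and 6.42 in ASC-Ls, and 5.93, 5.82 and 6.67 in ASC-Is. The ASC-Is were all above the ASC-Ns, and the ASC-Ls spread over the range of both. The difference between ASC-Is and ASC-Ns was 0.94 (SE 0.40).

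Among the surface receptors, Csf1r, the receptor for colony-stimulating factor 1 and interleukin-34, was 7.86, 7.93 and 6.41 in ASC-Ns, 6.60, 6.32 and 6.09 in ASC-Ls, and 8.10, 6.74 and 7.10 in ASC-Is. The lactation mean was 2.09-fold below the nulliparous mean (−1.07, SE 0.45) and 1.97-fold below the involution mean (−0.98, SE 0.45). Lactation 1 exceeded nulliparous 3, whereas no ASC-L reached an ASC-I. Adgre1, which encodes the macrophage antigen F4/80, was 6.86, 6.78 and 5.72 in ASC-Ns, 5.50, 5.37 and 5.52 in ASC-Ls, and 7.45, 5.63 and 8.02 in ASC-Is. Every ASC-L lay below every other array, although involution 2 and nulliparous 3 came close to them. The lactation mean was 1.99-fold lower than that of ASC-Ns (−0.99, SE 0.55) and 2.98-fold lower than that of ASC-Is (−1.57, SE 0.55).

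Mrc1, the mannose receptor, had the widest spread of the receptors, with 8.73, 8.40 and 5.41 in ASC-Ns, 6.96, 5.22 and 5.79 in ASC-Ls, and 9.51, 5.78 and 7.62 in ASC-Is. Nulliparous 3 and involution 2 lay among the ASC-Ls, and the SE of its changes was 1.07. Cx3cr1, the fractalkine receptor, had 6.61, 6.74 and 5.83 in ASC-Ns, 5.80, 5.56 and 5.74 in ASC-Ls, and 6.09, 5.91 and 5.57 in ASC-Is. It was lower in every ASC-L than in any ASC-N (−0.70, SE 0.24), but the ASC-Is overlapped the ASC-Ls (−0.16, SE 0.24). Ms4a7, a membrane protein of macrophages, lay between 4.05 and 4.86 in all ASC-Ns, all ASC-Ls and involution 2, and at 6.54 and 5.69 in involution 1 and 3.

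Of the other receptors, the log2 changes in ASC-Ls against ASC-Is were −1.18 (SE 0.57) for the lysosomal glycoprotein Cd68, −1.17 (SE 0.38) for the lipopolysaccharide co-receptor Cd14 and −1.36 (SE 0.75) for the scavenger receptor Msr1, and none of these 3 overlapped between the stages. Mertk, a receptor for apoptotic cells, was 6.35 in lactation 2, above 1 or more arrays of each other stage, with a change of −0.46 (SE 0.32). Marco, another scavenger receptor, and Cd163, which takes up hemoglobin bound to haptoglobin, varied little, over 5.18 to 5.78 and 4.04 to 4.69.

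The adaptors that carry immunoreceptor tyrosine-based activation motifs (ITAMs) pass signals from many myeloid receptors to the kinase Syk. Tyrobp, also called DAP12, was 7.36, 7.12 and 5.64 in ASC-Ns, 6.06, 6.14 and 5.84 in ASC-Ls, and 8.17, 6.86 and 7.03 in ASC-Is. Fcer1g, the shared gamma chain of Fc receptors, was 8.16, 7.94 and 5.96 in ASC-Ns, 6.56, 6.47 and 6.08 in ASC-Ls, and 8.44, 7.01 and 7.26 in ASC-Is. In both adaptors nulliparous 3 was the lowest array and no ASC-L reached an ASC-I, with changes of −1.34 (SE 0.47) and −1.20 (SE 0.57) between those stages. Nfam1, an ITAM receptor that activates NFAT, was lower in every ASC-L (4.36 to 4.71) than in any other array (4.90 to 5.99), by 0.75 against ASC-Ns and 0.73 against ASC-Is (SE 0.29 for both).

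Downstream of the adaptors, Syk itself varied little, from 5.74 to 6.51, yet its 3 ASC-Is (6.51, 6.13 and 6.41) were above all 6 other arrays. The change was 0.44 against ASC-Ns and −0.51 in ASC-Ls against ASC-Is (SE 0.13 for both), a difference of less than 1.5-fold in each case. The kinase Btk, also used by B cells, was −0.90 (SE 0.32) in ASC-Ls against ASC-Is, and Vav1, a signaling protein of blood cells, was −0.63 (SE 0.37). The Src-family kinase Fgr lay between 5.18 and 5.81 over all arrays.

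The leukocyte membrane genes included a pair that followed the mean of the set closely (r = 0.97 and 0.98). Ptprc, which encodes CD45 and is found on nearly all nucleated blood cells, was 7.50, 7.47 and 5.36 in ASC-Ns, 5.88, 5.94 and 5.53 in ASC-Ls, and 8.04, 6.58 and 6.77 in ASC-Is. Laptm5, a lysosomal protein of hematopoietic cells, was 8.87, 8.53 and 6.64 in ASC-Ns, 7.11, 7.06 and 6.64 in ASC-Ls, and 9.36, 7.89 and 8.44 in ASC-Is. For both genes the ASC-Is were all above the ASC-Ls, nulliparous 3 lay at or below them, and the changes against ASC-Is were −1.34 (SE 0.58) and −1.63 (SE 0.56).

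Ifitm6, an interferon-inducible transmembrane gene of myeloid cells, was 5.62, 5.44 and 5.19 in ASC-Ns, 5.22, 4.34 and 5.45 in ASC-Ls, and 6.93, 5.69 and 6.60 in ASC-Is. Here the ASC-Is stood above both other stages, by 0.99 against ASC-Ns and 1.40 against ASC-Ls (SE 0.36 for both), and the ASC-Ls and ASC-Ns overlapped. Cd52, a small glycoprotein of leukocytes, was −1.02 (SE 0.36) in ASC-Ls against ASC-Is without overlap. The tetraspanin Cd53 lay at 10.33 to 11.01 on every array but lactation 2, where it was 8.88.

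The cytoskeletal and GTPase genes serve leukocyte shape and migration, and all 8 had a lower mean in ASC-Ls than in either other stage, in comparisons that share the ASC-Ls. Plek, the platelet and leukocyte substrate of protein kinase C, was 7.93, 7.78 and 6.51 in ASC-Ns, 6.27, 6.16 and 6.52 in ASC-Ls, and 8.27, 6.61 and 7.57 in ASC-Is. The lactation mean was 2.13-fold below that of ASC-Ns (−1.09, SE 0.46) and 2.24-fold below that of ASC-Is (−1.16, SE 0.46), and nulliparous 3 and lactation 3 had nearly equal values. Against ASC-Ns and ASC-Is respectively, the changes were −0.70 and −0.63 (SE 0.27) for the adaptor Lpxn and −0.89 and −0.87 (SE 0.33) for Rassf2, a Ras-association protein.

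In Rassf2, as in Marco, Cd53, Gpnmb and Acod1, nulliparous 3 was the highest ASC-N, a place it held in 46.2% of all genes. Its signal of Rassf2 was 7.16. The other signals of Rassf2 were 6.78 and 7.10 in ASC-Ns, 6.64, 5.53 and 6.18 in ASC-Ls, and 7.11, 6.38 and 7.47 in ASC-Is. No ASC-L reached an ASC-N, while lactation 1 exceeded involution 2.

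Rgs1, which shortens signaling by chemokine receptors, was 6.80, 7.56 and 4.20 in ASC-Ns, 4.70, 5.75 and 4.32 in ASC-Ls, and 7.61, 7.05 and 5.81 in ASC-Is. It had the largest change of this group in ASC-Ls against ASC-Is (−1.90, SE 0.83), and lactation 2 nearly reached involution 3. Its difference between ASC-Is and ASC-Ns was 0.64 with all arrays and −0.36 without nulliparous 3. The GTPase Rac2 (−0.81, SE 0.29), its activator Dock2 (−0.96, SE 0.51) and the actin-binding protein Aif1, known as Iba1 (−0.91, SE 0.39), did not overlap between ASC-Ls and ASC-Is. Coro1a, another actin regulator, did overlap (−0.61, SE 0.38).

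Spi1, which encodes PU.1, was 6.74, 6.61 and 5.06 in ASC-Ns, 5.50, 5.43 and 5.10 in ASC-Ls, and 7.34, 6.22 and 6.25 in ASC-Is. Its lactation mean was 2.40-fold below that of ASC-Is (−1.26, SE 0.45) and 1.73-fold below that of ASC-Ns (−0.79, SE 0.45), with nulliparous 3 the lowest array. Irf8, its partner in myeloid cells, was 6.39, 6.26 and 5.62 in ASC-Ns, 5.92, 6.13 and 5.91 in ASC-Ls, and 6.79, 6.04 and 5.98 in ASC-Is. The stages overlapped and the changes were −0.10 and −0.28 (SE 0.26), although Irf8 followed the mean of the other genes over the 9 arrays (r = 0.85).

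The lipid and lysosomal genes were the least alike. Apoe, a lipid carrier made by macrophages and by other stromal cells, was 9.80, 9.74 and 7.89 in ASC-Ns, 8.58, 8.64 and 8.03 in ASC-Ls, and 12.13, 9.31 and 9.65 in ASC-Is. It had the largest difference of all 42 genes between ASC-Ls and ASC-Is, at 3.86-fold (−1.95, SE 0.75), and involution 1 stood far above the other 8 arrays. Acp5, the tartrate-resistant acid phosphatase of osteoclasts and some macrophages, was 7.06, 6.77 and 6.14 in ASC-Ns, 6.35, 7.62 and 6.51 in ASC-Ls, and 6.50, 8.01 and 6.88 in ASC-Is. Its highest values fell in lactation 2 and involution 2, the arrays with high epithelial signal. Gpnmb, a glycoprotein of lipid-laden macrophages, was 7.96, 8.26 and 8.49 in ASC-Ns, 7.12, 7.16 and 10.11 in ASC-Ls, and 9.22, 7.42 and 9.08 in ASC-Is, and lactation 3 alone held its highest value.

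The comparison of lactation with involution asks how the stroma that nurses differs from the stroma that has begun to regress. Here the mean of 40 of the 42 genes was lower in ASC-Ls, and Fgr and Cd163 were the exceptions. The median log2 change of the 42 genes was −0.97, against 0.0078 over all genes. Past an unadjusted p of 0.05 and a 1.5-fold change, limits taken from the study's lists of changed genes, 22 genes were lower, where 0.406% of all genes were, and 26 genes were lower in every ASC-L than in any ASC-I, against 2.6% of all genes. The genes were picked with this contrast in view, so nothing is read from these counts. No gene of the 19930 passed an adjusted p of 0.05 in limma with the Benjamini-Hochberg method, the smallest being 0.9996, and 359 genes had an unadjusted p under 0.05.

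With the replicate number as a block, 29 of the 42 genes and 207 of all genes differed past the limits in this comparison, against 22 and 96 without it. Leaving out involution 1 left 2 of the 42 genes lower past the limits, with 0.135% of all genes. Without lactation 1 the count was 11 while the share of all genes rose to 0.913%, and without lactation 2 it was 14 (0.351% of all genes). It was 13 without lactation 3 (0.291%) and without involution 3 (0.251%), and 28 without involution 2 (1.25%). The median stayed negative, between −1.23 and −0.66. Without lactation 2 and involution 2, which held the highest luminal epithelial means, 20 genes passed, with 0.818% of all genes.

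The comparison of lactation with nulliparous glands asks how the nursing stroma differs from that of mice that have never been pregnant. The mean of 37 of the 42 genes was lower in ASC-Ls, with a median of −0.69 against 0.0067 over all genes. The 6 genes past the limits were Csf1r, Cx3cr1, Plek, Nfam1, Lpxn and Rassf2, where 0.457% of all genes were lower, and 4 genes (Adgre1, Cx3cr1, Nfam1 and Rassf2) were lower in every ASC-L than in any ASC-N, against 3.7% of all genes. Nothing is read from these counts either. No gene passed an adjusted p of 0.05 in limma (smallest 0.9984), and 726 genes had an unadjusted p under 0.05.

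The counts between ASC-Ls and ASC-Ns moved most with nulliparous 3. Without it, 27 of the 42 genes were lower past the limits, with 1.43% of all genes, and the median was −1.03. Without nulliparous 1 or nulliparous 2, 1 and 0 genes were lower (0.241% and 0.452% of all genes), with medians of −0.49 in both cases. Leaving out lactation 1, 2 or 3 left 3, 1 and 2 genes lower (1.1%, 0.426% and 0.677% of all genes), with 1 gene higher in the first case. The luminal epithelial mean of nulliparous 3 (5.81) was also below those of nulliparous 1 and 2 (6.92 and 6.86), as was its mean of 9 proliferation genes (6.90 against 8.59 and 9.16), while its fibroblast mean (10.92) lay between theirs (11.16 and 10.72). The part of these differences in the results was not tested.

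**Figure D3:**
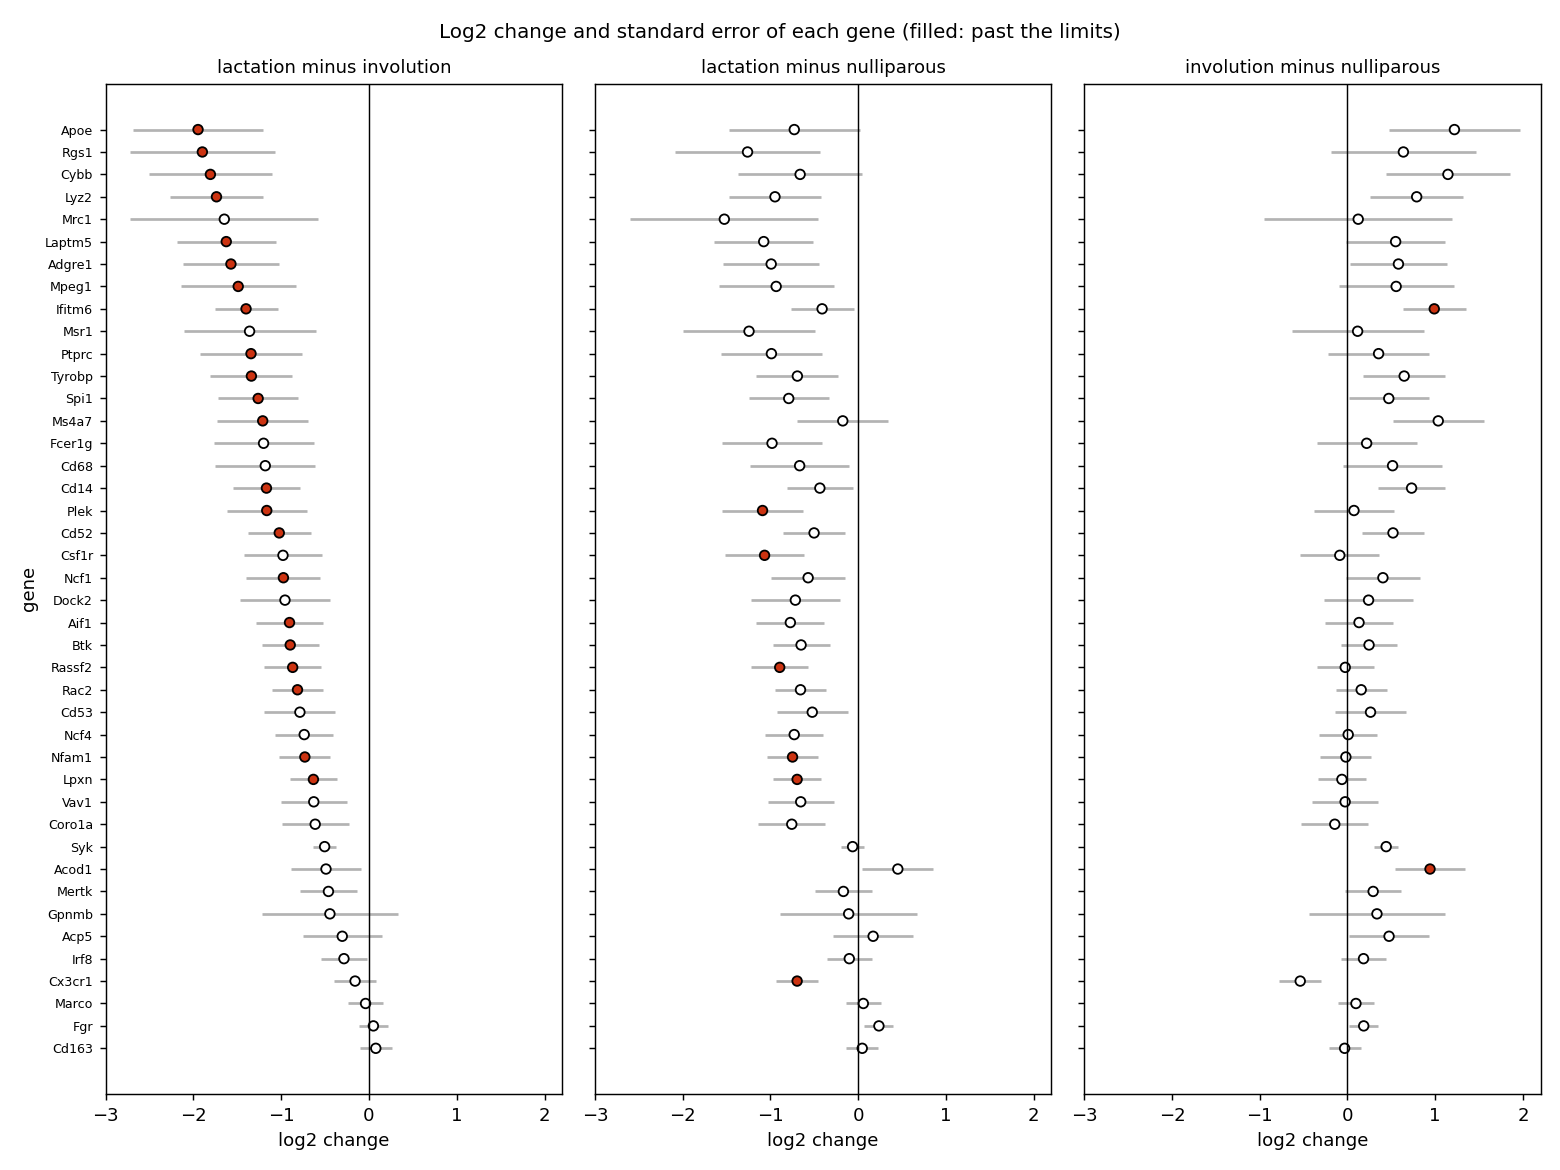
Log2 change of each of the 42 genes (points) with its standard error (lines) in the 3 comparisons, ordered by the change between ASC-Ls and ASC-Is, with filled points for genes past the limits. Of the genes, 40 lie left of zero for lactation minus involution, 37 for lactation minus nulliparous and 8 for involution minus nulliparous.

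Between involution and nulliparous glands most of the differences were small. The means of 34 genes were higher and those of 8 were lower in ASC-Is, with a median of 0.28, against 0.0031 over all genes. Acod1 and Ifitm6 were higher past the limits, where 0.0702% of all genes were, and Acod1, Ifitm6 and Syk were higher in every ASC-I than in any ASC-N, against 3.89% of all genes. No member was lower by either measure, where 0.181% of all genes were lower past the limits and 2.65% without overlap. No gene passed an adjusted p of 0.05 in limma (smallest 0.9999), and 311 genes had an unadjusted p under 0.05.

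The direction between ASC-Is and ASC-Ns depended on nulliparous 3 and on involution 1. The median was −0.07 without nulliparous 3 and 0.01 without involution 1. Without involution 1 the mean was higher in ASC-Is for 22 genes and lower for 20. Without nulliparous 3 the mean was lower in ASC-Is for 24 of the 42 genes and higher for 18, and 1 gene was higher and 2 were lower past the limits (0.176% and 0.933% of all genes). Past the limits, 6 genes were higher without involution 2 (0.201% of all genes) and none without involution 3 (0.105%). In each case 1 was higher without nulliparous 1, nulliparous 2 or lactation 2 (0.0903%, 0.0351% and 0.0753% of all genes). Without involution 1, 1 gene was lower (0.1% of all genes) and none was higher. Against nulliparous 1 and 2, involution 1 was above both in 36 genes (45.7% of all genes) and involution 2 was below both in 35 (34.4%). Involution 3 was below both in 28 (36.0% of all genes) and above both in 12 (38.5%). Thus the ASC-Is lay on both sides of these ASC-Ns.

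Relative to the rest of the set, some genes did not overlap between these stages. They were picked from the 42 for that reason and have no background share, so nothing is read from their number. The scale subtracts the mean of each array, so a gene can shift on it without changing itself. The log2 change of Ncf4 itself in ASC-Is against ASC-Ns was 0.0089. Measured from the mean of the 42 genes on the same array, Csf1r stood at 0.76, 0.85 and 0.50 in ASC-Ns and at 0.45, 0.22 and 0.13 in ASC-Is. Cx3cr1 stood at −0.48, −0.33 and −0.09 in ASC-Ns and at −1.56, −0.62 and −1.39 in ASC-Is, and Vav1 at −0.79, −0.71 and −0.78 against −1.07, −1.19 and −1.16. Ncf4 stood at −0.56, −0.42 and −0.40 in ASC-Ns and at −0.82, −0.61 and −0.97 in ASC-Is. In these genes each ASC-I lay below each ASC-N on this relative scale. The reverse held in Cd14 (0.31, 0.36 and 0.27 in ASC-Ns, 0.59, 0.83 and 0.66 in ASC-Is). It also held in Cd52 (−0.78, −0.85 and −0.81 in ASC-Ns, −0.72, −0.47 and −0.75 in ASC-Is).

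Other genes of the same pathways were described from lists of 108 genes, of which 100 were measured. These lists too were written with earlier results of these arrays known, so nothing is read from their counts. The genes named from them were picked among those past the limits by the size of their change, and their p-values are a description. Between ASC-Ls and ASC-Is, 14 of the 100 were lower past the limits (0.406% of all genes) and none was higher (0.0753%), with a median change of −0.37. In either direction, 25 passed with the replicate number as a block, where 207 of all genes did. The count was 2 without involution 1 (36 of all genes) and 7 without lactation 3 (93 of all genes). It was 26 without involution 2 (316 of all genes) or without nulliparous 3 (139 of all genes). In the list of other ITAM and Fc receptor genes, 6 of 22 were lower, among them the inhibitory Fc receptor Fcgr2b (−1.47, SE 0.62, unadjusted p = 0.0406, adjusted p = 0.9996 in limma), the activating Fc receptor Fcgr3 (−1.20, SE 0.41, unadjusted p = 0.0172, adjusted p = 0.9996) and the adaptor Fyb (−1.15, SE 0.42, unadjusted p = 0.0236, adjusted p = 0.9996).

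In the list of other macrophage receptors and tissue genes, 6 of 36 were lower past the limits, against 0.406% of all genes. They included the complement receptor C3ar1 (−1.59, SE 0.67, unadjusted p = 0.0430), the integrin alpha chain Itgam, also called CD11b (−1.53, SE 0.64, unadjusted p = 0.0420), and the leukocyte receptor Cd84 (−1.41, SE 0.45, unadjusted p = 0.0126), each with an adjusted p of 0.9996 in limma. The leukocyte cytoskeleton list had 2 of 20, the selectin ligand Selplg (−0.84, SE 0.24, unadjusted p = 0.00694, adjusted p = 0.9996) and the integrin activator Fermt3 (−0.64, SE 0.23, unadjusted p = 0.0208, adjusted p = 0.9996). None of 7 other oxidase genes and none of 15 other myeloid transcription factors passed, and their medians were −0.04 and −0.03.

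Between ASC-Ls and ASC-Ns 1 of the 100 genes was lower past the limits, against 0.457% of all genes. This was Folr2, a folate receptor of tissue macrophages (−0.87, SE 0.38, unadjusted p = 0.0474, adjusted p = 0.9984 in limma). Without nulliparous 3, 35 of the 100 and 352 of all genes passed in either direction. The median over the 100 genes with all arrays was −0.26. Between ASC-Is and ASC-Ns none of the 100 and 50 of all genes passed, with a median of 0.10 over the 100. Without nulliparous 3 or involution 2, 3 of the 100 passed in each case, with 221 and 83 of all genes.

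**Figure D4:**
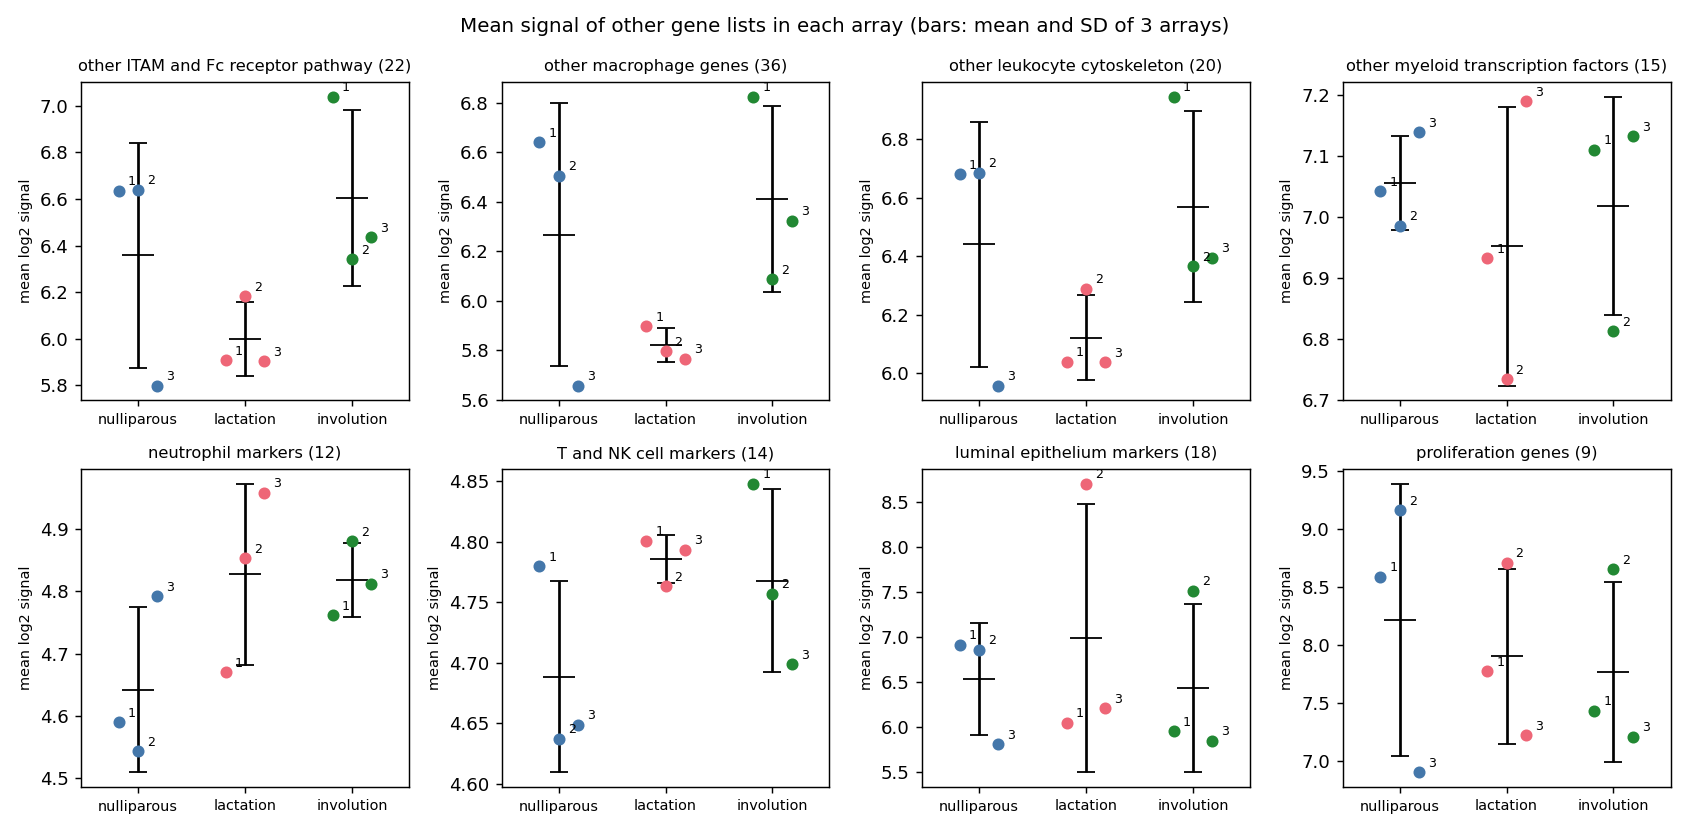
Mean log2 signal of 8 lists of genes outside the set (number of genes in parentheses) on each array, with points numbered by replicate and bars for the mean and SD of 3 arrays. The 3 lists of other ITAM, macrophage and leukocyte cytoskeleton genes place the arrays much as the 42 genes do. The list of other myeloid transcription factors does not, and nulliparous 3 (7.14) is its highest ASC-N. The list of other oxidase genes is not shown. Neutrophil and T cell markers vary little (4.54 to 4.96 and 4.64 to 4.85), and luminal epithelial markers peak in lactation 2 and involution 2.

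Outside the set, the 10 genes most correlated with the mean of the 42 genes over the 9 arrays were Lilr4b and Cd33 (both r = 0.99), Pik3cg and Cd48 (both r = 0.98), and Tlr8, Itgam, Lyz1, Itgb2, C5ar1 and Cd84 (all r = 0.97). Of these, Lilr4b and Cd33 encode receptors of myeloid cells, and Itgb2 encodes the beta chain that pairs with Itgam. Lilr4b was 9.28, 8.78 and 6.67 in ASC-Ns, 7.37, 6.91 and 7.19 in ASC-Ls, and 10.15, 8.00 and 8.85 in ASC-Is. It placed nulliparous 3 below the ASC-Ls and involution 1 on top, an order that follows from its choice by correlation with the set over these arrays. It changed by 1.94 for each unit of the mean of the set.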

How the data were processed

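Log2 signals per probe set were deposited by the authors for 9 arrays. The study's methods name robust multi-array average (RMA) for their normalization and an RNeasy kit for the RNA, whereas the submitters' notes name GCRMA and limma, versions not given, and the labels name Trizol. Which mice stand behind each array is not given in the sources used here, so p-values measure the spread between preparations. No further normalization was applied. Of 28348 probe sets, 21762 had 1 symbol in the array's annotation and were averaged per gene, and 1621 with several symbols and 4965 with none were left out. The genome build of the annotation is not given in the sources used here. RefSeq found 21671 of the named probe sets and changed 0 symbols.

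limma 3.58.1 in R 4.3.3 was fitted to the 9 arrays together, 1 mean per stage, without a trend (prior degrees of freedom 2.91), after it was tested on simulated data. The limits were an unadjusted p under 0.05 and at least 1.5-fold, and p-values were adjusted by the Benjamini-Hochberg method over 19930 genes. The members, lists and motifs were chosen with earlier results of these data known. Named with values in every array were Lyz2, Adgre1, Csf1r, Ptprc, Spi1, Tyrobp, Fcer1g and Apoe and, in each of 7 groups by role, the 2 genes of largest change. Acod1, Cx3cr1, Rassf2 and Gpnmb were added after their values were seen. From each list of other myeloid genes, up to 3 genes past the limits were named per comparison. In the cell type lists, Pdgfra and Pparg were lower past the limits and F11r, Elf3 and Wap higher in ASC-Ls against ASC-Ns. Against ASC-Ns, Pparg was also lower and Il7r higher in ASC-Is.

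Replicate numbers are shared between stages. Deviations from the stage means of same-numbered arrays correlated at r = 0.47, 0.73 and 0.46 between ASC-Ls and ASC-Is, at −0.08, 0.40 and 0.45 between ASC-Ls and ASC-Ns, and at 0.07, 0.43 and 0.50 between ASC-Is and ASC-Ns. The main fit did not use the numbers as pairs. A separate fit added the replicate number as a block for every comparison. Protein sequences were not used here.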

Additional observations from a re-analysis of the deposited data

How the results depend on the processing

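The median change of the 42 genes kept its sign under all settings for ASC-Ls against ASC-Ns and for ASC-Ls against ASC-Is, but not for ASC-Is against ASC-Ns (−0.07 without nulliparous 3). Counts past the limits moved far more, and the cause was not tested. With the replicate block, 295, 207 and 90 of all genes passed for ASC-Ls against ASC-Ns, ASC-Ls against ASC-Is and ASC-Is against ASC-Ns (125, 96 and 50 without it), 15 of the 42 genes passed for ASC-Ls against ASC-Ns (6 without it), and 9, 25 and 3 of the 100 other myeloid genes passed (1, 14 and 0 without it). Fitting only the 2 stages compared gave 3 and 23 other myeloid genes for the first 2 comparisons, with 140 and 120 of all genes. An intensity trend with a robust prior gave 0 and 9 (115 and 79 of all genes). Removing the lowest 25% of mean signal gave 0 for the first (102 of all genes). For ASC-Is against ASC-Ns, 1 of the 42 genes passed with the trend and 1 with quantile normalization (44 and 47 of all genes). The probe set of highest mean signal in place of the mean moved no count by over 1.5-fold.

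Leaving out each array in turn gave 80 to 404, 36 to 331 and 32 to 221 of all genes, 0 to 27, 2 to 28 and 0 to 6 of the 42 genes, and 0 to 35, 2 to 26 and 0 to 3 other myeloid genes in the 3 comparisons. The extremes over all genes were 80 without nulliparous 1 and 404 without lactation 1, 36 without involution 1 and 331 without lactation 1, and 32 without nulliparous 1 and 221 without nulliparous 3. After the data were seen, lactation 2 and involution 2, with high epithelial signal, were left out together. This gave 154, 194 and 144 of all genes and 5, 24 and 3 other myeloid genes for the 3 comparisons. It gave 5 of the 42 genes for ASC-Is against ASC-Ns. With nulliparous 3 left out too, so that the ASC-Ns, ASC-Ls and ASC-Is had 2 arrays each, 919, 294 and 956 of all genes, 29, 31 and 6 of the 42 genes and 39, 37 and 5 other myeloid genes passed. In ASC-Is against ASC-Ns, 5 of the genes named by rule turned from higher to lower without involution 1 (Mrc1, Fcer1g, Ptprc, Plek and Irf8). Without nulliparous 3, 8 turned in this way (Mrc1, Fcer1g, Laptm5, Ptprc, Plek, Spi1, Irf8 and Rgs1). Of these, Rgs1 alone was at least 1.5-fold higher with all arrays, and its change (0.64) turned to −0.36 without nulliparous 3 and to −0.47 without the 3 arrays, and it reached 1.32 without nulliparous 2.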
